A study of Mus musculus with 3 samples.

Results

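Metallothioneins and the genes that move zinc across membranes were examined in macrophages that had been differentiated in culture from mouse bone marrow, a common model of innate immunity. The set was fixed by name and comprised 6 of the 55536 genes in the tables. These were the metallothionein genes Mt1 and Mt2, the zinc-sensing transcription factor gene Mtf1, the zinc exporter gene Slc30a1, and the zinc importer genes Slc39a1 and Slc39a14. All 6 symbols were found, with the gene IDs ENSMUSG00000031765.8 (Mt1), ENSMUSG00000031762.7 (Mt2), ENSMUSG00000028890.13 (Mtf1), ENSMUSG00000037434.7 (Slc30a1), ENSMUSG00000052310.9 (Slc39a1) and ENSMUSG00000022094.15 (Slc39a14). Total RNA of the cytosolic fraction was sequenced after ribosomal RNA depletion in 3 libraries of strain C57BL/6J, which made up 1 group. Its cells had received lipid A, the Tlr4-activating part of lipopolysaccharide, at 100 ng/ml for 12 hours, had then been kept without it for 12 hours, and had finally been given 100 ng/ml again for 60 minutes. The replicates were separate biological samples under 1 donor entry, and whether they came from different animals was not given, so the tests measure the spread between these samples. No untreated or once-treated cells were analysed here, so every value is a level in restimulated cells and not a response.

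Metallothioneins are small, cysteine-rich proteins that bind zinc and copper in the cytosol and buffer their free concentration. When zinc is plentiful, the zinc finger protein MTF1 binds short metal response elements and drives metallothionein genes and Slc30a1. Transporters of the Slc30 family move zinc out of the cytosol, across the cell surface or into organelles, and those of the Slc39 family move it into the cytosol. In macrophages zinc and copper handling is part of the defence against microbes.

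The coding sequences of Mt1 and Mt2 are shown because the chemistry of the family lies in their cysteine codons. They are those of the main transcripts, Mt1-201 (coding region on mm10 chromosome 8, 94179311 to 94180190, plus strand) and Mt2-201 (94172848 to 94173424, plus strand), from the GENCODE M21 transcripts without the stop codon, with cysteine codons in capitals.
Mt1: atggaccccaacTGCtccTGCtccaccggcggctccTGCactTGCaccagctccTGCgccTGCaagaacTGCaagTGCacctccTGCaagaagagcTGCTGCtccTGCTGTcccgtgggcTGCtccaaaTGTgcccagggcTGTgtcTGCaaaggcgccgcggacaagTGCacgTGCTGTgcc
Mt2: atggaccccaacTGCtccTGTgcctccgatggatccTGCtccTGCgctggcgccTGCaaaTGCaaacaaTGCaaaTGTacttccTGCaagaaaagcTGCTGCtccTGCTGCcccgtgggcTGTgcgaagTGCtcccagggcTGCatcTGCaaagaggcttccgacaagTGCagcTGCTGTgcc
Each has 61 codons, of which 20 encode cysteine, and all 20 stand at the same places in both. Over the whole coding sequence, cysteine codons included, 145 of 183 bases (79.2%) and 33 of 61 codons were identical. Few reads were split between genes, since the expected counts of Mt1 were whole, at 451, 1073 and 634 in replicates 1, 2 and 3, and those of Mt2 were 31.99, 152.97 and 79.99. Each coding region is spread over 3 exons. The genes are neighbours on chromosome 8 with 5513 bases and no annotated gene between them, Mt2 at 94172664 to 94173568 and Mt1 at 94179082 to 94180327.

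Promoter windows are shown for Mt1, Mt2 and Slc30a1, the members known as MTF1 targets, because the data below compare how these genes vary. Each window of the RefSeq table, build GRCm38.p6, plus strand here, runs from 250 bases before to 50 bases after a start set by RefSeq, which differs from the GENCODE start given for the same gene elsewhere in the text. Of the 6 genes, 5 were matched. Capitals mark matches to the core of the metal response element, searched on both strands as TGCACNC and TGCGCNC, so that a match on the other strand reads GNGTGCA or GNGCGCA.
Mt1, chr8:94178839-94179138: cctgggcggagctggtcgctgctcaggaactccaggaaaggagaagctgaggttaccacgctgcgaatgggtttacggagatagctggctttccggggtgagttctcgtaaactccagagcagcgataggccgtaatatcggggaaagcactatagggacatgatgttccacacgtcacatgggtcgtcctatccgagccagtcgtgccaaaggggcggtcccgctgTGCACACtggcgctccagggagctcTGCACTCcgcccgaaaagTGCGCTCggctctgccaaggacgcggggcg
Mt2, chr8:94172368-94172667: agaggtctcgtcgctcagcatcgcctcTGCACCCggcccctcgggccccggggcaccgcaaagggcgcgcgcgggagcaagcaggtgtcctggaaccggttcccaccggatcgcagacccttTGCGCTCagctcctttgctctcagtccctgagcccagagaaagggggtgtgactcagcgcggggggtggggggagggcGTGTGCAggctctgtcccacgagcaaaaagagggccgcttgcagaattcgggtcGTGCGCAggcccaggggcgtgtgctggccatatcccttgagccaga
Slc30a1, chr1:191906531-191906830: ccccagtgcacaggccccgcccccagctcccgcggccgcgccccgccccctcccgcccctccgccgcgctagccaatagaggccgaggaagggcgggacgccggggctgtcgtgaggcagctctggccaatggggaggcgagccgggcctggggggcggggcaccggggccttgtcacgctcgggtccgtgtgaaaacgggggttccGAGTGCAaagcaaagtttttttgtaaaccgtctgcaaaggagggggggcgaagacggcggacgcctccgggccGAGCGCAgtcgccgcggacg
The core was matched 3 times in the Mt1 window, 4 times in that of Mt2 and 2 times in that of Slc30a1, and 0 times in those of Mtf1 and Slc39a1. Of 32851 promoter windows of the same length, 25.7% held at least 1 match and 1.97% held at least 3. The core of the antioxidant response element, TGACNNNGC, was matched once each in the Mt2, Slc30a1 and Slc39a1 windows, without overlapping a metal response element match, and in 12.39% of all windows. These are matches of letters and not shown to be bound.

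TPM is transcript abundance per length, scaled to the same total in every library. All 6 genes stood above 1 TPM by a limma test of log2(TPM + 1) with Benjamini-Hochberg adjusted p under 0.05. Of the 20685 genes tested, 44.5% did so and 50.4% stood below it. The count was 5 of 6 with a pseudocount of 0.1, with a filter on mean count, and without replicate 2 or 3. In a second set of deposited tables it was 4 of 6. The 6 genes were chosen with earlier results of these data known, so their excess over 44.5% is a description only. The median of the mean TPM of the 6 genes was 8.07, beside 0.68 over all genes tested, which include non-coding genes. Set against the 14387 coding genes with TPM above 0 in any library, the set was spread widely. The mean was higher than in 93.3% of them for Slc39a1, 87.4% for Mt1 and 75.05% for Slc30a1. It was higher than in 57.3% for Mtf1, 51.8% for Mt2 and 41.1% for Slc39a14. From high to low the order of mean TPM was Slc39a1, Mt1, Slc30a1, Mtf1, Mt2 and Slc39a14. The importers held both ends of that order.

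**Figure D1:**
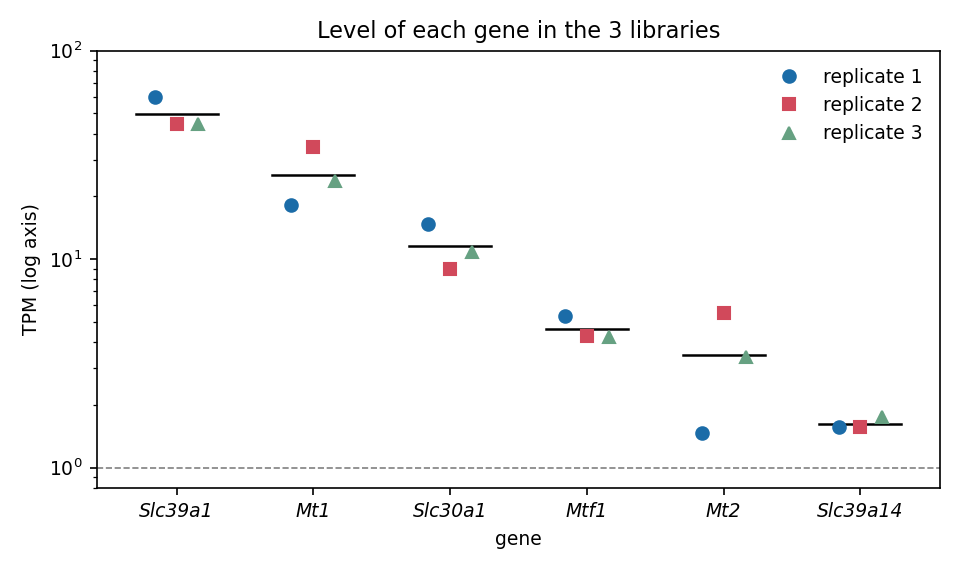
TPM of each gene on a log axis in replicates 1, 2 and 3, with the mean as a black bar and 1 TPM as a dashed line. Slc39a1 lies between 44.35 and 60.06 TPM, and the values of Mt2, from 1.46 to 5.54 TPM, span those of its neighbours in the order.

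Mt1 was the higher metallothionein gene and differed widely between libraries. It had 18.15, 34.47 and 23.66 TPM in replicates 1, 2 and 3, a mean of 25.4 ± 8.30 TPM (SD, n = 3). That mean was higher than those of 87.4% of the coding genes with TPM above 0 in any library. Replicate 2 was highest and replicate 1 lowest, and the authors' deposited intervals for Mt1, 16.3 to 19.6, 32.1 to 36.1 and 21.6 to 25.2 TPM in the same order, did not overlap. Mt1 stood above 1 TPM by 3.68 on the log2(TPM + 1) scale, with a standard error of 0.18 (limma, adjusted p = 2e-06).

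Mt2 was lower and followed the same order of libraries. Its levels were 1.46, 5.54 and 3.38 TPM in replicates 1, 2 and 3, a mean of 3.46 ± 2.04 TPM (SD, n = 3), which rests on 31.99, 152.97 and 79.99 expected counts. The antisense gene Gm45774, which overlaps Mt2, had 0.01, 0.04 and 0.01 TPM. The call above 1 TPM (limma, adjusted p = 0.015) depended on the setting. The limma adjusted p was 0.0616 with a pseudocount of 0.1, 0.0513 when genes whose counts averaged under 10 were left out, 0.369 in the second tables, 0.111 without replicate 2 and 0.102 without replicate 3. The other metallothionein genes, Mt3, known from brain, and Mt4, known from squamous epithelia, were listed at 0 in every library, where 3 counts would have been 0.059, 0.0562 and 0.0645 CPM (counts scaled to the same total on genes in every library) in replicates 1, 2 and 3, a limit that covers counting error only.

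Within each library Mt1 exceeded Mt2. The difference in log2(TPM + 1) was 2.96, 2.44 and 2.49 in replicates 1, 2 and 3, a mean of 2.63 ± 0.29 (SD, n = 3), in the same direction in 3 of 3 libraries. An exact two-sided sign-flip permutation test gave p = 0.25, the smallest value that 3 libraries allow. The TPM of Mt1 was 12.4, 6.22 and 7 times that of Mt2 in the same order. Of the counts on both genes, Mt1 took 93.4% in replicate 1 (451 of 483, exact Clopper-Pearson 95% interval 90.8 to 95.4%), 87.5% in replicate 2 (1073 of 1226, 85.5 to 89.3%) and 88.8% in replicate 3 (634 of 714, 86.3 to 91.0%). The intervals of replicates 1 and 2 did not overlap, that of replicate 3 overlapped both, and all cover counting error only.

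Between libraries 5 of the 6 genes varied beyond counting noise by a chi-square test of the counts, all but Mtf1, beside 69.3% of the 13075 genes tested, and 4 of 6 under TMM scaling, beside 67.0%. The metallothionein genes had the widest spread of the 6. In CPM, Mt1 had 8.88, 20.1 and 13.6 and Mt2 had 0.63, 2.87 and 1.72 in replicates 1, 2 and 3. The ratio of replicate 2 to replicate 1 was 2.27 for Mt1, with an exact 95% interval of 2.03 to 2.53, and 4.55 for Mt2, with an interval of 3.09 to 6.89. The chi-square test gave adjusted p = 6.2e-50 for Mt1 and 4.1e-16 for Mt2. The SD of log2(TPM + 1) was 0.447 for Mt1, larger than in 94.6% of the 9774 genes whose TPM averaged 1 or more, and 0.709 for Mt2, larger than in 98.2% of them. Without replicate 1, which was lowest for both, replicate 2 exceeded replicate 3 by 1.48 times for Mt1 and 1.67 times for Mt2.

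Markers of stromal cells, the collagen-making cells of marrow, had the same order of libraries as the metallothionein genes. The summed TPM of 7 stromal markers was 0.1, 7.13 and 3.16 in replicates 1, 2 and 3, beside 19.6, 40 and 27 for the metallothionein genes. Of the 7, 6 were highest in replicate 2 in CPM, beside 39.1% of all genes tested, and none stood above 1 TPM by the limma test. Col1a1, a collagen gene and the highest of the list, had 0, 2.53 and 1.28 TPM, and Col3a1, named after its values were seen, had 0, 2.03 and 0.77 TPM. Their part in the metallothionein values was not tested. In replicate 1, where the stromal sum was 0.1 TPM, Mt1 stood at 18.15 TPM. Fewer cells of a type and less RNA per cell cannot be told apart in these bulk samples.

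**Figure D2:**
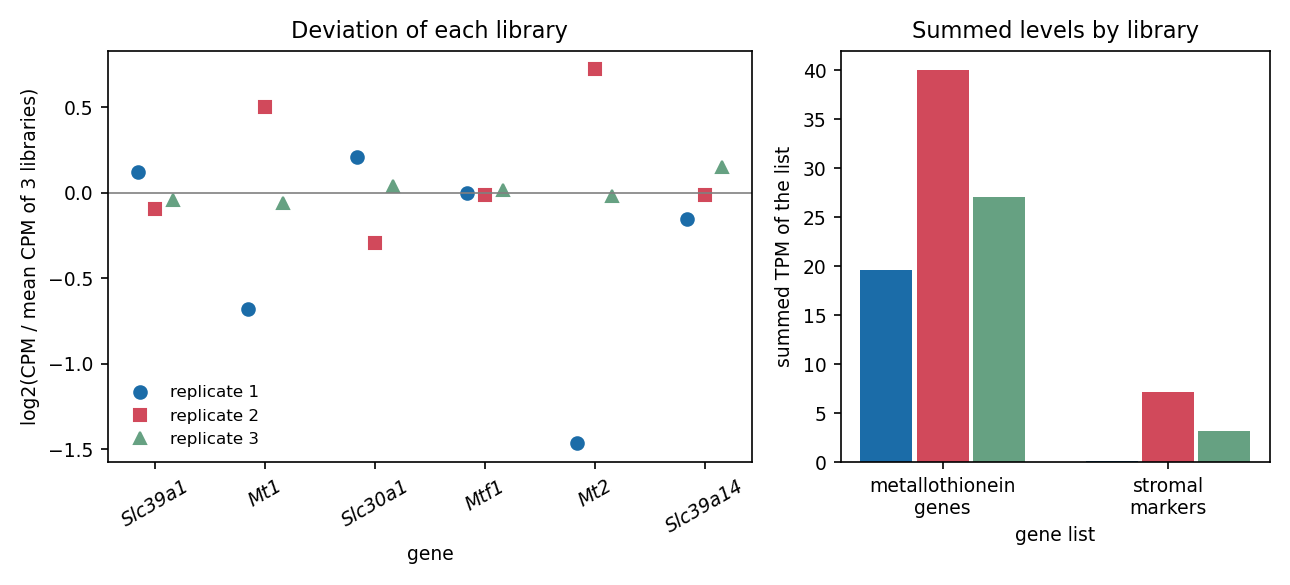
Left, log2 of each library's CPM over the mean CPM of the 3 libraries, for each gene. Mt1 and Mt2 are highest in replicate 2 and lowest in replicate 1, while Slc30a1 and Slc39a1 are highest in replicate 1 and Mtf1 stays close to 0. Right, summed TPM of the 4 metallothionein genes and of the 7 stromal markers in each library, with the stromal sum at 0.1 TPM in replicate 1.

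Mtf1, which encodes the transcription factor that senses zinc, was steady between libraries in CPM, though not in TPM. Its SD of log2(TPM + 1) was 0.156, larger than in 50.8% of the 9774 genes whose TPM averaged 1 or more. It had 5.35, 4.3 and 4.23 TPM in replicates 1, 2 and 3, a mean of 4.63 ± 0.63 TPM (SD, n = 3), above 1 TPM (limma, adjusted p = 2.4e-06). As a share of counts it was nearly the same in each, at 43.2, 42.8 and 43.6 CPM, a coefficient of variation of 0.95%. The ratio of the highest to the lowest library was 1.02, against a median of 1.25 over all genes tested, and the chi-square test did not call it (adjusted p = 0.85). Under TMM scaling that ratio was 1.06, with replicate 1 highest in place of replicate 3 (chi-square, adjusted p = 0.17). Nuclear coding genes together took 34.5%, 29.0% and 27.5% of all TPM in replicates 1, 2 and 3, so TPM and CPM need not order the libraries alike. Rescaled to coding genes alone, Mtf1 stood at 15.5, 14.8 and 15.4 TPM.

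Besides its main coding transcript, Mtf1 had a sizeable share of its abundance, but few of its counts, in 1 other. Mtf1-201, the coding transcript of 7631 bases, took 71.7%, 76.4% and 75.1% of the abundance in replicates 1, 2 and 3, a mean of 74.4% ± 2.45 (SD, n = 3). A retained-intron transcript of 781 bases took 25.6%, 22% and 23.3%, which rests on 57.9, 49.5 and 45.6 expected counts. Mtf1-201 had 2132, 2232 and 1969 counts in the same order. Abundance is taken per length, so few counts on a short transcript can make a large share. In the second tables the share of Mtf1-201 was lower at 61.4% ± 7.14, and that of the retained-intron transcript was 26.7% ± 1.01. The gene lies on mm10 chromosome 4, 124802104 to 124849800, where it overlaps 1110065P20Rik on the other strand, which stood at 3.56, 3.4 and 3.28 TPM. Whether reads of overlapping genes were told apart by strand is not known, because no strand setting was given.

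Slc30a1, the exporter of the cell surface and a known MTF1 target, had the opposite order of libraries to the metallothionein genes. It had 14.78, 8.95 and 10.83 TPM in replicates 1, 2 and 3, a mean of 11.5 ± 2.98 TPM (SD, n = 3), above 1 TPM (limma, adjusted p = 1.6e-06). In CPM it stood at 109, 77.4 and 97.6, highest in replicate 1 and lowest in replicate 2. The ratio of replicate 2 to replicate 1 was 0.707, with an exact 95% interval of 0.679 to 0.736, and the chi-square test over libraries gave adjusted p = 1e-62. Highest and lowest libraries were the same under TMM scaling, under the size factors of DESeq2 and in the second tables. The gene lies on chromosome 1, 191906767 to 191913247, and Slc30a1-201 took 99.9% ± 0.16 of its abundance (SD, n = 3). The antisense gene 1700034H15Rik overlaps it and had 0.06, 0.18 and 0.08 TPM.

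Slc39a1, an importer of the cell surface made in most tissues, was the highest of the 6. It had 60.06, 44.39 and 44.35 TPM in replicates 1, 2 and 3, a mean of 49.6 ± 9.06 TPM (SD, n = 3), higher than 93.3% of coding genes (limma against 1 TPM, adjusted p = 3.8e-08). Replicate 1 was highest in CPM too, at 190, with 164 and 170 in replicates 2 and 3 (chi-square, adjusted p = 6e-24), but the ratio of the highest to the lowest was only 1.16, under the median of 1.25 over all genes tested, and 1.04 without replicate 1 (chi-square, adjusted p = 0.0367). A single transcript is annotated for the gene, which lies on chromosome 3, 90248172 to 90253612.

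Slc39a14, an importer of zinc and also of iron and manganese that is known as an acute phase gene of the liver, was the lowest of the 6. Its levels were 1.56, 1.57 and 1.74 TPM in replicates 1, 2 and 3, a mean of 1.62 ± 0.10 TPM (SD, n = 3). That was above 1 TPM (limma, adjusted p = 0.0018), but in the second tables its levels were 0.715, 0.883 and 1.01 TPM (limma, adjusted p = 0.203), and it was not called above the level. In each library the authors' deposited interval, 1.76 to 2.73, 1.67 to 2.39 and 1.82 to 2.76 TPM, lay above the deposited TPM of the gene. In CPM it had 10.4, 11.4 and 12.8, and the call of variation (chi-square, adjusted p = 0.0034) was lost under TMM scaling (0.053), without replicate 1 (0.083) and without replicate 3 (0.17). The gene lies on chromosome 14, 70303469 to 70351425, on the minus strand.

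Of 13 annotated transcripts of Slc39a14, 6 had a share above 0 in any library. Slc39a14-202, of 4926 bases, took 94.3%, 88.3% and 85.2% in replicates 1, 2 and 3, a mean of 89.2% ± 4.63 (SD, n = 3), and 74.8% ± 7.93 in the second tables. Slc39a14-203, of 479 bases, took 0%, 9.06% and 13.6%, which rests on 0, 3.5 and 4.97 expected counts. That is too few counts to set its order between libraries.

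**Figure D3:**
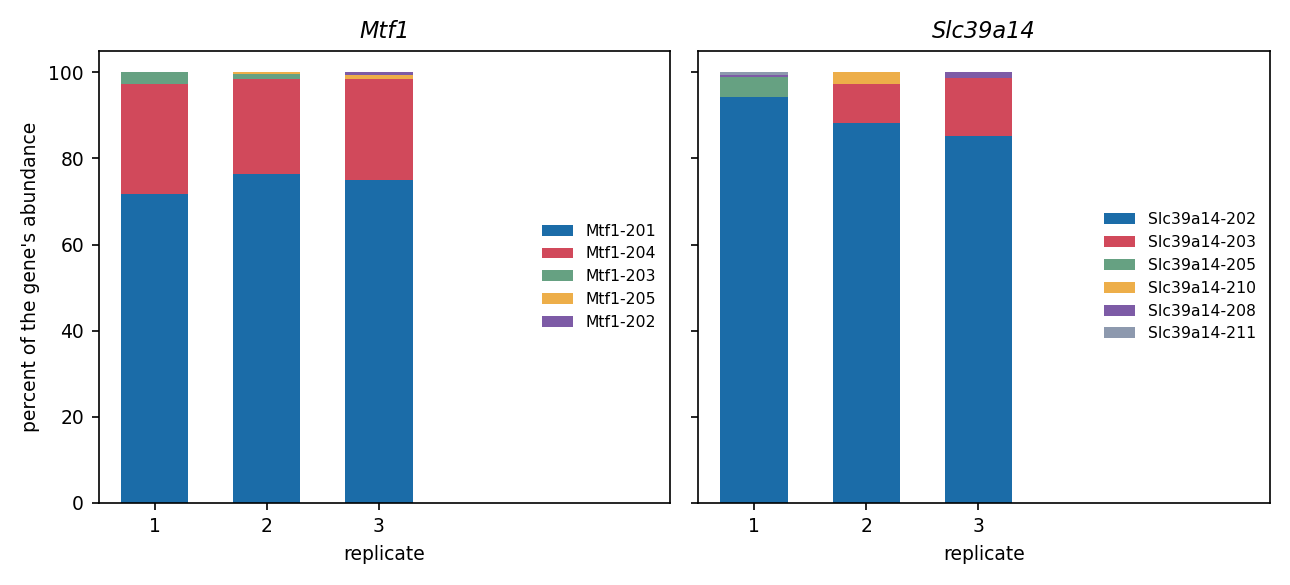
Percent of the abundance of Mtf1 and of Slc39a14 in each transcript, stacked, in replicates 1, 2 and 3. Mtf1-201 takes 71.7% to 76.4% with the retained-intron transcript as the next share, and Slc39a14-202 takes 85.2% to 94.3%.

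Between the importers, Slc39a1 exceeded Slc39a14 by 4.58, 4.14 and 4.05 on the log2(TPM + 1) scale in replicates 1, 2 and 3, a mean of 4.26 ± 0.28 (SD, n = 3; exact sign-flip permutation test, p = 0.25, the smallest possible). Not every neighbour in the order of levels was separated. Slc39a1 and Mt1, Mt1 and Slc30a1, and Slc30a1 and Mtf1 differed in the same direction in 3 of 3 libraries and had ranges that did not overlap, by means of 0.97 ± 0.66, 1.06 ± 0.78 and 1.13 ± 0.21 (SD; exact sign-flip permutation test, p = 0.25 each). Mtf1 exceeded Mt2 in 2 of 3 libraries, with a difference of 0.44 ± 0.85, less than its spread (exact sign-flip permutation test, p = 0.75). Mt2 exceeded Slc39a14 in 2 of 3 libraries, and the difference of 0.66 ± 0.70 was likewise within its spread (exact, p = 0.5).

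In the Slc30 family, 5 of 10 genes stood above 1 TPM, 1 stood below it and 4 were listed at 0 and not tested. The share of 44.5% over all genes tested leaves out genes listed at 0, so 5 of 10 cannot be set against it. Slc30a1 was the highest, followed by Slc30a5, which loads zinc into the secretory pathway, at 9.87 ± 0.26 TPM (SD, n = 3). The others above 1 TPM, named after their values were seen, were Slc30a7 at 7.99 ± 0.73, Slc30a9 at 5.64 ± 0.80 and Slc30a6 at 4.28 ± 0.48 TPM. Slc30a4 was the lowest measured at 0.413 ± 0.11 TPM. The genes listed at 0 were Slc30a2, Slc30a3, Slc30a8 (the exporter of insulin granules) and Slc30a10, and no library had a count on them. Of the 6 tested for variation, 4 were called, near the 69.3% over all genes tested.

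In the Slc39 family, 10 of 14 genes stood above 1 TPM and 3 below it, beside 44.5% and 50.4% of all genes tested. The remaining 1, Slc39a5, was listed at 0 and not tested, and the shares over all genes leave out such genes. The median of the family's mean TPM was 3.67. After Slc39a1 the highest was Slc39a7, which releases zinc from the endoplasmic reticulum and Golgi apparatus, with 34.79, 30.39 and 35.21 TPM in replicates 1, 2 and 3, a mean of 33.5 ± 2.67 (SD, n = 3). The lowest measured was Slc39a2 at 0, 0.02 and 0 TPM. Slc39a14 ranked near the low end of those above 1 TPM, next to Slc39a8, an importer of zinc and manganese, at 1.44 ± 0.07 TPM, a value named after it was seen. Of the 12 tested for variation, 8 were called, near the 69.3% over all genes tested. Under TMM scaling 6 of the 12 were called, a smaller share than the 67.0% of all genes tested.

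**Figure D4:**
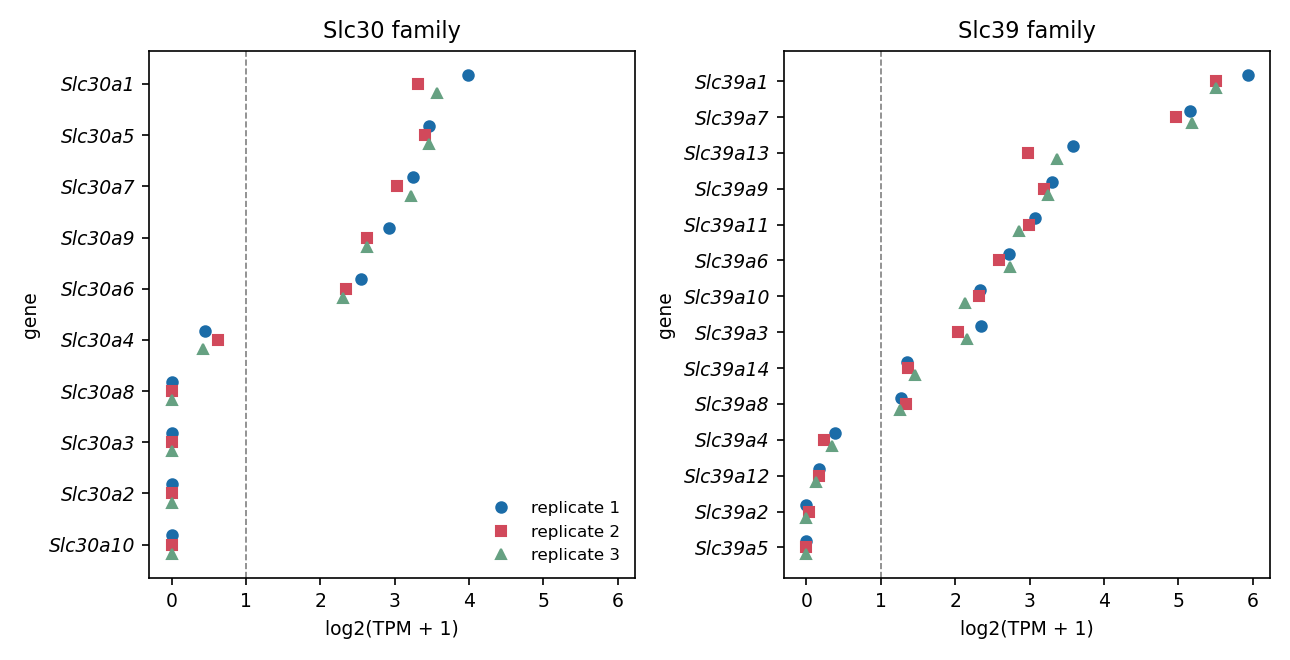
log2(TPM + 1) of the 10 Slc30 and 14 Slc39 genes in replicates 1, 2 and 3, ordered by mean TPM, with 1 TPM as a dashed line. Slc30a1 and Slc39a1 head their families, and 4 Slc30 genes and Slc39a5 lie at 0.

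Genes reported elsewhere as MTF1 targets did not share 1 order of libraries. Of 10, which include Mt1, Mt2 and Slc30a1, 9 stood above 1 TPM, beside 44.5% of all genes tested. Among them were Selenow, a selenoprotein gene, at 279 ± 29.95 TPM and Csrp1, a LIM domain protein gene, at 51.2 ± 14.4 TPM (SD, n = 3), and Pgf was lowest at 0.0733 ± 0.04. All 9 that were tested varied beyond counting noise, beside 69.3% of all genes tested. In CPM, 6 of them were highest in replicate 2, against 39.1% of all genes tested, while 2 were highest in replicate 1 and 1 in replicate 3. The 6 were Mt1, Mt2, the iron exporter gene Slc40a1, Slc39a10, Gclc and Ndrg1, and those highest in replicate 1 were Slc30a1 and Csrp1. Mt1 and Mt2 were already seen to be highest in replicate 2, and the list was chosen with earlier results of these data known. The count of 6 is therefore a description of these genes and no test of MTF1 targets. The stromal marker sum was highest in replicate 2 as well, and its part in these values was not tested. Slc40a1 had 101, 179 and 101 CPM in replicates 1, 2 and 3, and Ndrg1 had 7.70, 17.9 and 8.57. In both of these, chosen after their values were seen, replicate 3 was close to replicate 1, unlike in Mt1.

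The profile over the 3 libraries most like that of Mt1, by the Euclidean distance between centred log2(TPM + 1) values among 3983 coding genes whose TPM averaged 10 or more, was that of B430305J03Rik at a distance of 0.12 (9.84, 20.83 and 14.58 TPM), followed by Sap18 at 0.14. For Mt2 it was B430305J03Rik at 0.30, followed by Mt1 at 0.41. Of the coding genes compared, none lay within 0.1 of Mt1 or Mt2. Within that distance lay 752 of Mtf1, 386 of Slc39a1, 148 of Slc39a14 and 92 of Slc30a1. The values were not scaled by spread, so a gene that varies widely, such as Mt1 or Mt2, tends to have few genes that near. Mt2, whose TPM averaged under 10, was itself not among the genes compared with Mt1. The closest to the other members were Yme1l1 and Arpp19 for Mtf1, Uqcc2 and Tlr13 for Slc39a1, Cfp and Hsp90b1 for Slc39a14, and Tmem229b and Frmd4a for Slc30a1. With 3 values a gene, such likeness is a description only.

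Expected counts on genes totalled between 46546422 and 53364168 a library. All 8 macrophage markers stood above 1 TPM, led by the lysozyme gene Lyz2 at 3525 TPM on average. Summed over 7 neutrophil markers the level was 7.54 to 9.96 TPM, led by S100a9, whose protein itself binds zinc, at 4.66 ± 0.50 TPM (SD, n = 3). S100a8, named after its values were seen, had 3.14 ± 0.71 TPM, and these 2 made up most of the sum. They were the only ones of the 7 above 1 TPM, while 4 stood below it, beside 44.5% and 50.4% of all genes tested. The remaining 1 was listed at 0 and not tested. The sums over 6 B and T cell and 6 erythroid markers were at most 0.1 TPM, and their highest genes were Cd3e at 0.02 and Klf1 at 0.0167 TPM. Of 4 nuclear RNAs, all were highest in replicate 3, beside 37.8% of all genes tested, with 452 TPM of Malat1, named after its values were seen, there, against 112 and 90.6 TPM in replicates 1 and 2. Slc39a14 was highest in replicate 3 in CPM too, and the part of nuclear RNA and of the neutrophil markers, whose sum was also highest there, in the Slc39a14 values was not tested.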

How the data were processed

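The 3 libraries of the single group came with tables of genes and of transcripts on build mm10, annotation M21, as their deposited text states. The authors quantified a transcriptome alignment into expected counts, TPM and the percent of each gene's abundance that a transcript takes, per the file headers. A second set of deposited transcript tables, with estimated counts and TPM made from the reads, was summed to genes here. The sources used here give no tool names and no strand setting. RNA 7SL took 58.4% to 63.7% of TPM, so CPM computed from the expected counts is given beside TPM. Entries that name no gene (0.378%, 0.0931% and 0.0772% of counts in replicates 1, 2 and 3) stayed out of the totals, which set the precision.

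An intercept-only limma 3.58.1 fit (R 4.3.3, trend and robust moderation) set log2(TPM + 1) against 1 TPM in the 20685 genes with TPM above 0 in any library. The pseudocount of 1 compresses low values. Variation was tested by chi-square on rounded expected counts, where a gene's counts summed to 30 or more. The limma and chi-square p-values were Benjamini-Hochberg adjusted over every gene tested, and those of the exact sign-flip permutation tests were not adjusted. TMM factors (edgeR 4.0.16), size factors (DESeq2 1.42.0), a pseudocount of 0.1, a filter on mean count, a level of 5 TPM, rescaling to coding genes, the second tables and leaving out each library were tried. Both tests were also run on simulated data. The simulation for the level test gave every gene the same relative spread beyond counting noise, so it does not cover genes as variable as Mt2. Other steps used Python 3.11.15, pandas 2.3.3, scipy 1.17.1 and matplotlib 3.10.9.

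The genes of the set and all lists were chosen with earlier results of these data known. Named were the 6 genes, the 2 highest and the lowest measured gene of each zinc, MTF1 target and copper list, the highest of each cell type list and the 2 nearest profiles.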

Additional observations from a re-analysis of the deposited data

How the results depend on the processing

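At a level of 5 TPM, 3 of the 6 genes and 5491 of all genes stood above it. There the means of Mt2, Mtf1 and Slc39a14 lay below the level, by −0.54, −0.10 and −1.19 on the log2 scale, but limma called only Slc39a14 (adjusted p = 2.44e-06) and neither Mt2 (0.116) nor Mtf1 (0.349). In the second tables Slc39a14 lay below 1 TPM at −0.10 on that scale, and 4 of 6 genes were called above it. The share of Mtf1-201 moved to 61.4% and that of Slc39a14-202 to 74.8% in the second tables, and the cause was not tested. The other results named in the design kept their direction, and their counts stayed within 1.5 times, under the settings run. Without each replicate in turn, 5 to 6 of the 6 genes stood above 1 TPM and 4 to 5 varied. Without replicate 2 or 3, Mt2 was no longer called above 1 TPM. Mt1 minus Mt2 was 2.31 in the second tables and 2.98 with a pseudocount of 0.1, and Slc39a1 minus Slc39a14 was 3.63 and 4.84. No pairing of libraries between groups was possible because the libraries form 1 group, and only genes were compared within each library. Depth limits Mt2, at 31.99 counts in replicate 1, and the minor transcripts most.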

Other observations

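Metallothioneins also bind copper. Of 10 copper handling genes, 9 stood above 1 TPM, beside 44.5% of all genes tested. Atp7b, the copper exporter of liver, was listed at 0 and not tested, and the share over all genes leaves out such genes. The median of the mean TPM of the 10 copper genes was 14.9, beside 0.68 over all genes tested, which include non-coding genes. Slc31a2, a copper transporter of endosomes and lysosomes, was the highest with 137.54, 81 and 81.36 TPM in replicates 1, 2 and 3, a mean of 100.0 ± 32.5 TPM (SD, n = 3). Next was Cox17, which carries copper to cytochrome oxidase, at 92.5 ± 11.4 TPM, and the lowest measured was Sco2 at 1.85 ± 0.24 TPM. Of 9 tested for variation between libraries, 8 were called, beside 69.3% of all genes tested. Of the 9, 4 were highest in replicate 1, 3 in replicate 2 and 2 in replicate 3, beside 23.1%, 39.1% and 37.8% of all genes tested in the same order.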
